A study of Oryctolagus cuniculus with 18 samples.

Results

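The epidermal growth factor (EGF) receptor EGFR, the ligands EGF and HBEGF and the adaptor GRB2 were measured in the aortas of rabbits with and without atherosclerosis. These 4 genes were taken by symbol from the 84 genes of interest of a PCR array on wound healing, and each was read in 1 well per rabbit. RNA came from the lower abdominal aorta of 18 male New Zealand White rabbits, which were 11 weeks old when the study began. The 9 rabbits of the control group were healthy and ate chow. The 9 rabbits of the atherosclerotic group had stable advanced disease, produced by balloon denudation of the aorta together with a high cholesterol diet, which held 0.30% cholesterol for 8 weeks and 0.15% for a further 12 weeks. Diet and denudation always went together, so their effects cannot be told apart. The array sees whole tissue, in which fewer cells of a type and less transcript per cell cannot be told apart.

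EGFR is a receptor tyrosine kinase at the cell surface. Its ligands are made as membrane-anchored precursors and shed by proteases, and HBEGF, which also binds heparin, is a known growth signal for vascular smooth muscle. A bound receptor phosphorylates its own tail, GRB2 docks there and recruits the exchange factor SOS, and the signal passes through RAS to a kinase cascade that includes MAPK3. GRB2 carries no enzyme activity of its own and serves many other receptors besides EGFR.

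Expression is given as the deposited ratio of a gene to the mean level of 5 reference genes in the same rabbit, or as its log2, where 1 unit is a doubling. The threshold cycle (Ct) is the PCR cycle at which a well becomes positive, and a later Ct means less transcript. A well with a Ct of 35 or later, or with no Ct, gives only an upper limit. The reference level itself stood apart in control rabbit 3, at 24.53 cycles where the rest of its group lay between 22.00 and 22.82, and in atherosclerotic rabbit 20, at 19.79 cycles where the rest lay between 22.65 and 23.65. Of the reference genes, ACTA2 had a lower ratio in the atherosclerotic group, whose median was 1.77 against 13.5 among controls. LDHA had a higher one, of 0.360 against 0.0590 in the median, and so did GAPDH, at 1.24 to 3.42 against 0.791 to 0.982 among controls, with no overlap between the groups. These 3 genes enter the denominator of every ratio below.

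The receptor was lower in atherosclerotic aorta and the adaptor was higher, while HBEGF did not pass the test at the deposited reference level and EGF was almost never detected. In the control group the ratio of EGFR ran from 0.00856 in rabbit 15 to 0.0166 in rabbit 11, and the median was 0.0135. In the atherosclerotic group it ran from 0.00225 in rabbit 6 to 0.00699 in rabbit 12, with a median of 0.00352. All 9 atherosclerotic rabbits lay below every control rabbit, so the groups did not overlap. The mean ratio of EGFR was 0.00409 ± 0.00147 (SD, n = 9) compared to 0.0133 ± 0.00243 (SD, n = 9) in the control group. On the log2 scale EGFR fell by 1.76 (standard error 0.22, 95% interval -2.21 to -1.30, adjusted p = 7.9e-07 from limma over the 84 genes), a 3.38-fold decrease. The exact two-sided permutation test gave p = 4.1e-05, which is the lowest it can give for groups of 9. Of the 84 genes, 60.7% passed the limma test in either direction, as EGFR and GRB2 did here. As background by direction, 22.6% of the 84 genes passed the limma test in the lower direction, and 9.52% lay lower with no overlap.

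**Figure D1:**
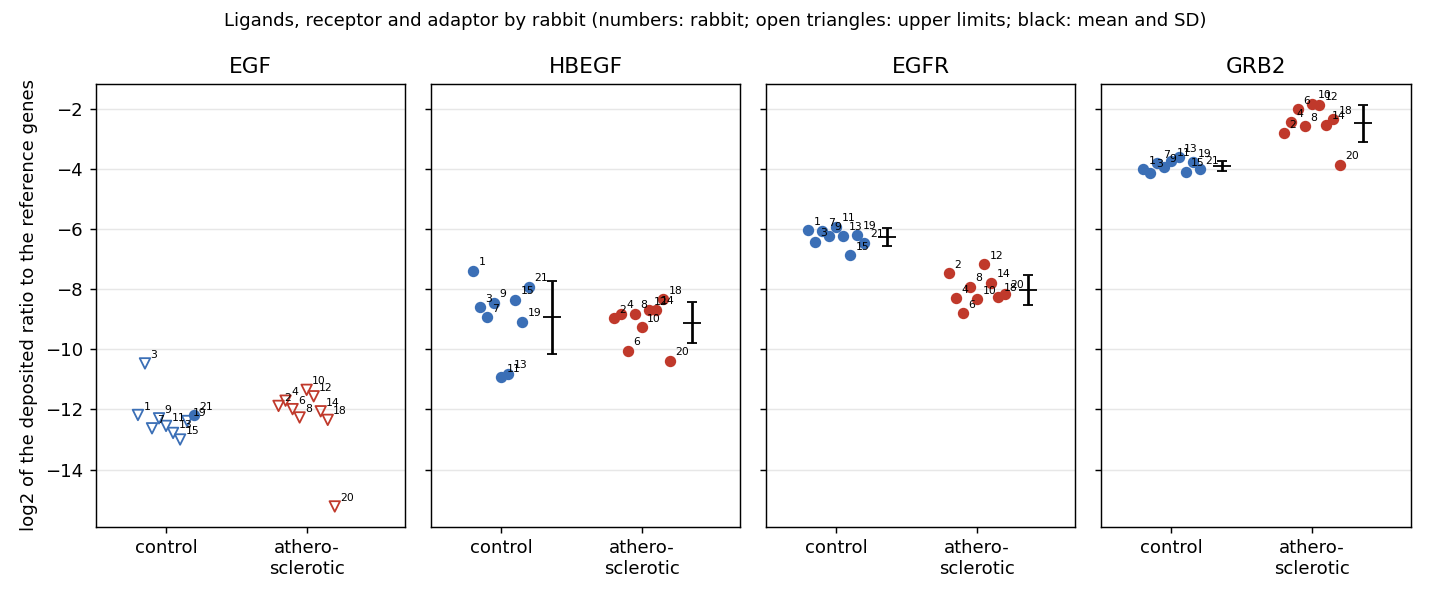
Log2 of the deposited ratio of EGF, HBEGF, EGFR and GRB2 (y axis) in each control (blue) and atherosclerotic (red) rabbit, numbered by rabbit, with the group mean and SD in black for the 3 genes measured in every rabbit. Open triangles are upper limits from wells at Ct 35 or later or with no Ct. EGFR separated the groups completely, GRB2 did so except in atherosclerotic rabbit 20, HBEGF overlapped, and EGF was measured in control rabbit 21 alone.

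GRB2 moved the opposite way. Its ratio in the control group lay between 0.0581 in rabbit 3 and 0.0831 in rabbit 13, and the median was 0.0653. In the atherosclerotic group the lowest value was 0.0694 in rabbit 20, the median 0.186 and the highest 0.284 in rabbit 10. The control rabbits were tightly grouped, within 1.43-fold of each other, and 8 of the 9 atherosclerotic rabbits lay above all of them. Rabbit 20 fell inside the control range. The mean ratio was 0.195 ± 0.0679 (SD, n = 9) compared to 0.0681 ± 0.00856 (SD, n = 9) in the control group. GRB2 rose by 1.43 on the log2 scale (standard error 0.23, limma adjusted p = 2.5e-05), a 2.69-fold increase, and the exact two-sided permutation test gave p = 0.00021. Of all 84 genes, 38.1% passed the limma test in the higher direction. When ACTA2 was dropped from the reference genes, rabbit 20 stood at -2.85 for GRB2 on the log2 scale, again within the control range of -3.07 to -2.48.

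HBEGF was detected below Ct 35 in all 18 rabbits, at a low level. The ratio in the control group ran from 0.000512 in rabbit 11 to 0.00600 in rabbit 1, and the median was 0.00259. In the atherosclerotic group it ran from 0.000751 in rabbit 20 to 0.00311 in rabbit 18, with a median of 0.00222. The ranges overlapped, and the whole atherosclerotic range fell inside that of the control group. Control rabbits spanned 11.7-fold, because rabbits 11 and 13 lay at or below 0.000557 while the other 7 lay at or above 0.00186. Atherosclerotic rabbits spanned 4.14-fold, with rabbits 6 and 20 at or below 0.000944 and the other 7 at or above 0.00162. The log2 difference of HBEGF was -0.17 (standard error 0.44, limma adjusted p = 0.74), and the exact two-sided permutation test gave p = 0.71. Its 95% interval ran from -1.09 to 0.74, that is from 0.471-fold to 1.67-fold. Changes as large as those of EGFR or GRB2 lay outside it at the deposited reference level, and the interval does not cover the choice of reference genes. When ACTA2 was dropped from the reference genes the difference of HBEGF was -0.998 and passed the test (adjusted p = 0.048 from limma), and with LDHA left out it was 0.38. Against ACTA2 alone it passed in the other direction, at 2.74 (adjusted p = 0.00037 from limma).

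EGF transcript was at or under the detection limit. A Ct below 35 was obtained in 1 of the 18 rabbits, control rabbit 21, at 34.74 cycles and a ratio of 0.000214. Another 7 wells had a later Ct, between 35.6 and 39.3 cycles, and 10 wells had none. Wells with any Ct were as many in one group as in the other, 4 of 9 in each. The remaining 17 ratios are upper limits, which ran from 2.6e-05 in rabbit 20 to 0.000707 in rabbit 3 and follow the reference level of each rabbit, so no fold change of EGF is given. In every rabbit HBEGF reached threshold earlier than EGF or its limit, by 4.28 cycles in control rabbit 21, where both were measured, and by at least 1.62 cycles in each of the other 17. Those 17 leads are lower bounds set by the ceiling at Ct 35 and have no order.

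The order of the 3 detected genes was the same in all 18 rabbits, with GRB2 first, EGFR second and HBEGF last. These levels compare different assays, whose efficiencies were not measured, so the size of a gap between genes is specific to this array, and reading a change in that gap as a fold change assumes that both assays double at each cycle. The gap between 2 genes in 1 rabbit also needs no reference gene. Of the 6 pairs among the 4 genes, the 3 that include EGF were limits in 17 of the 18 rabbits and were not tested.

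The gap between the adaptor and its receptor widened the most. GRB2 reached threshold earlier than EGFR by 2.02 to 2.79 cycles in the control group, and the median was 2.31. In the atherosclerotic group the gap ran from 4.30 cycles in rabbit 20 to 6.80 in rabbit 6, with a median of 5.34. The groups did not overlap, and rabbit 20, which looked like a control rabbit for GRB2 alone, lay above every control rabbit here. The mean gap differed by 3.18 cycles (standard error 0.28), equal to a 9.07-fold change in the ratio of GRB2 to EGFR under that assumption (p = 4.1e-05 in the exact two-sided permutation test and 0.00025 after adjustment over the 6 pairs). The gap between EGFR and HBEGF narrowed, from a mean of 2.68 ± 1.34 (SD, n = 9) to 1.09 ± 0.63 (SD, n = 9) cycles. This difference of -1.58 cycles (standard error 0.49) passed the same exact permutation test (adjusted p = 0.0080). Control gaps were spread from 1.36 to 5.02 cycles, and 6 of the 9 gaps in the atherosclerotic group were smaller than any of these. In rabbit 18 the receptor led HBEGF by only 0.09 cycles. GRB2 against HBEGF differed by 1.60 cycles (standard error 0.51; exact permutation adjusted p = 0.016), and 2 atherosclerotic rabbits lay above every control rabbit. The widest control gaps in both pairs with HBEGF were those of rabbits 11 and 13. Without these 2 rabbits the difference of GRB2 against HBEGF was 2.22 cycles, that of EGFR against HBEGF shrank to -0.974 cycles (exact permutation adjusted p = 0.022), and the log2 difference of HBEGF itself was -0.73 (adjusted p = 0.064 from limma).

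**Figure D2:**
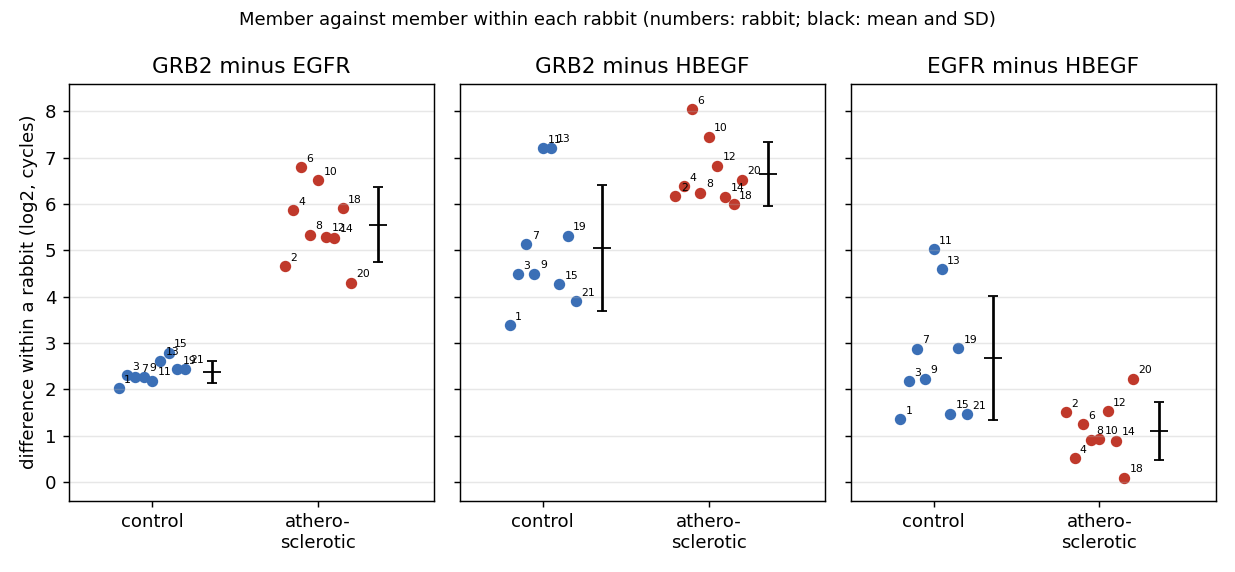
Difference in threshold cycle between 2 of the genes within each rabbit (y axis, log2 scale), for control (blue) and atherosclerotic (red) rabbits, numbered by rabbit, with group mean and SD in black. GRB2 minus EGFR lay between 2.02 and 2.79 in all control rabbits and at 4.30 or above in all atherosclerotic rabbits, while the pairs with HBEGF overlapped.

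How far EGFR and GRB2 moved depended on the genes they were read against. EGFR was lower with an adjusted p under 0.05 in limma at the deposited level and at all 8 other levels built from several genes, between -2.58 with ACTA2 left out and -1.20 with LDHA left out. GRB2 was higher at all of these too, between 0.60 with ACTA2 left out and 1.98 with LDHA left out. Read against a single reference gene, the direction was not always kept. Against ACTA2 alone EGFR was higher by 1.16 (adjusted p = 0.026 from limma), and against LDHA alone GRB2 was lower, with a difference of -1.11 (adjusted p = 0.00014 from limma). Against GAPDH alone GRB2 differed by 0.32, which did not pass the test (adjusted p = 0.31 from limma). Raw Ct, with no reference at all, was later by 1.80 cycles for EGFR and earlier by 1.39 cycles for GRB2 in the atherosclerotic group. The median of all 84 genes moved with the reference level, from 0.37 as deposited to -0.45 with ACTA2 left out and 0.92 with LDHA left out. Relative to that median, EGFR stood at -2.13, HBEGF at -0.54 and GRB2 at 1.05, and a change of reference level shifts all genes of a rabbit alike, so these values are fixed by construction.

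**Figure D3:**
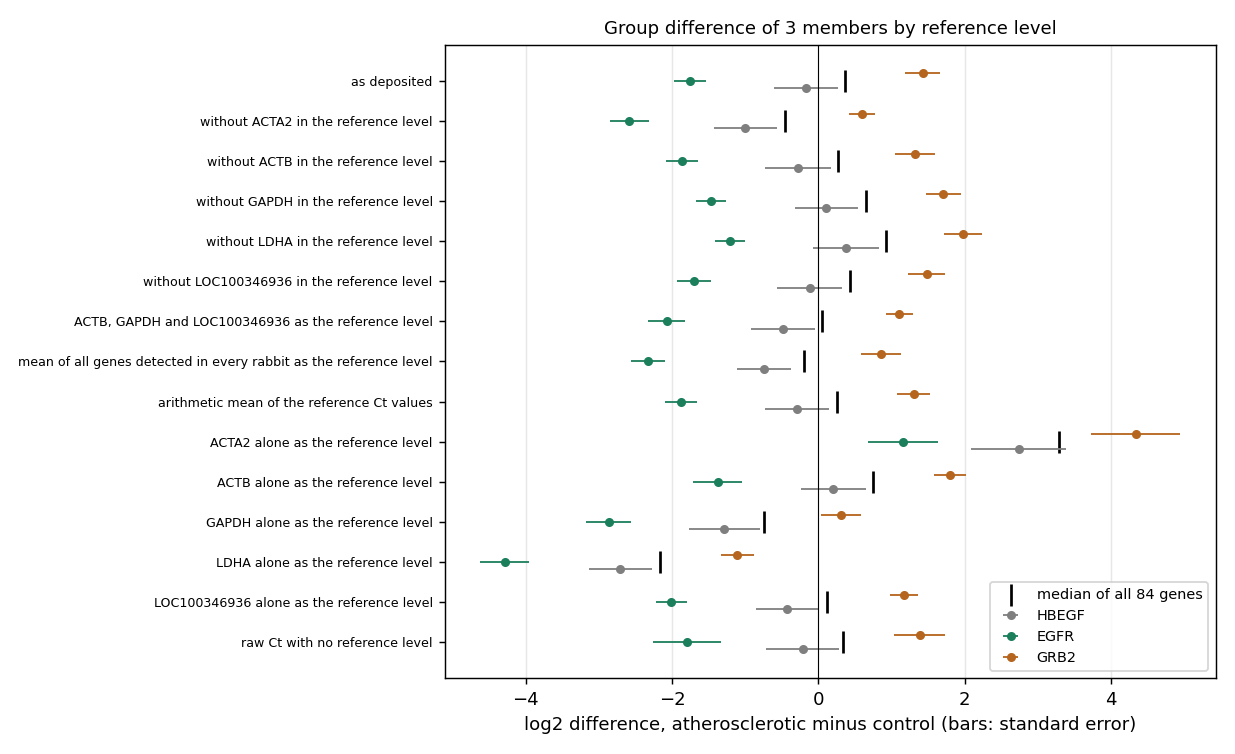
Log2 difference between atherosclerotic and control rabbits (x axis, bars are standard errors) for HBEGF, EGFR and GRB2 at the deposited and 14 other reference settings (y axis), with the median of all 84 genes as a black tick. The 3 genes and the median shift together, and EGFR lies above 0 against ACTA2 alone while GRB2 lies below 0 against LDHA alone.

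Markers of the cells in the wall moved in the same comparison. Of 5 smooth muscle markers listed, 3 were on the array, ACTA2, transgelin (LOC100009332) and ACTC1, and the log2 of their summed ratio was 4.66 to 5.21 in the control group and 0.39 to 3.76 in the atherosclerotic group. None of the 3 was at 0, although ACTC1 had 1 control and 7 atherosclerotic wells at the limit. Of 7 macrophage markers, 3 were on the array, CTSK, TLR4 and MMP9, with a log2 sum of -1.11 to -0.01 in the control group and 1.73 to 2.86 in the atherosclerotic group. MMP9 was at the limit in 6 control wells. Both sums are set by the most abundant genes. The mean control ratio of CTSK was 0.719, beside 0.00638 for TLR4 and 0.000292 for MMP9, so the macrophage sum is close to CTSK alone. That of ACTC1 was 0.000745, beside 14.4 for ACTA2 and 16.1 for transgelin. On its own, the log2 ratio of TLR4 was -9.74 to -6.26 in the control group and -3.12 to -1.92 in the atherosclerotic group. CD68, CD14, CSF1R and ITGAM were not on the array, nor was any of the 3 endothelial or 3 epithelial markers. ACTA2 and transgelin stood above the reference level in every control aorta, while endothelium could not be checked. The part of these shifts in the results for EGFR and GRB2 was not tested.

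EGFR was also set against the 2 smooth muscle markers and GRB2 against the 2 macrophage markers that were measured in every rabbit. ACTC1 and MMP9 were not used in this way because of their limits. As deposited, with those limits in place, ACTC1 differed by -1.03 and MMP9 by 4.19, and the ceiling at Ct 35 caps the size of both values. EGFR relative to transgelin was higher in the atherosclerotic group by 1.23 cycles (standard error 0.23), from -10.3 ± 0.24 (SD, n = 9) to -9.02 ± 0.66 (SD, n = 9), with 8 of 9 rabbits above every control rabbit (exact two-sided permutation test, adjusted p = 0.00022 over 4 such comparisons). EGFR relative to ACTA2 was higher by 1.16 cycles (exact permutation adjusted p = 0.015). Rabbit 20 alone lay below every control rabbit in that comparison, at -11.7, and without it the difference was 1.50. GRB2 relative to CTSK, the collagen-degrading protease of macrophages and osteoclasts, was lower, with a difference of -1.32 cycles (standard error 0.22; exact permutation adjusted p = 0.00022) and 8 of 9 rabbits below every control rabbit. GRB2 relative to TLR4, a receptor of innate immunity, was lower, with a difference of -3.88 cycles (standard error 0.47; exact permutation adjusted p = 0.00016), and all 9 atherosclerotic rabbits lay below every control rabbit. These 4 comparisons were chosen after the data were seen. Of all genes of interest, TLR4 had the highest difference as deposited, 5.30, and transgelin the lowest, -2.99, while CTSK rose by 2.75. By construction, any gene with a difference between -2.99 and 5.30 is higher relative to transgelin and lower relative to TLR4. These directions therefore do not single out EGFR or GRB2. How many other genes would pass the same comparisons was not tested.

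Of 34 other genes listed for the EGF receptor pathway, 8 were on the array, of which 3 were higher, 1 was lower and 4 did not pass the limma test. The 4 genes called of 8 stand beside 60.7% of all 84 genes called in either direction, 38.1% higher and 22.6% lower. TIAM1, an exchange factor that activates the GTPase RAC, had the largest difference of the 8, 5.22 (standard error 0.46, adjusted p = 6.6e-09), with no overlap between the groups, as held in the higher direction for 13.1% of all 84 genes. MAPK3 rose by 1.01 (standard error 0.23, adjusted p = 0.00068 from limma). PIK3CA, a catalytic subunit of the lipid kinase that EGFR also engages, rose by 0.63 (adjusted p = 0.0052 from limma). PTK2, the focal adhesion kinase, had a difference of -0.50 with an adjusted p of 0.035, which rose to between 0.057 and 0.066 without any one of control rabbit 3 and atherosclerotic rabbits 2, 4, 10 and 18. The transcription factor STAT3 differed by -0.01 and CTNNB1, beta catenin, by 0.26, and neither passed the test. The median difference of the 8 genes was 0.26, beside 0.37 for all 84. Of the 4 genes called, TIAM1 kept its direction and passed the test at all 8 other reference levels built from several genes, and MAPK3 passed at 6, PIK3CA at 5 and PTK2 at 5. PIK3CA turned to -0.19 with ACTA2 left out and PTK2 to 0.05 with LDHA left out. The split of 3 higher and 1 lower became 1 and 4 with ACTA2 left out and 6 and 0 with LDHA left out.

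GRB2 also serves receptors for other growth factors, and 7 of 10 listed ligands of such receptors were on the array. Of these, 4 were higher and 2 lower, with a median difference of 1.10, beside 38.1% higher, 22.6% lower and a median of 0.37 over all 84 genes. PDGFB, a mitogen for smooth muscle, rose by 4.63 (standard error 0.45, adjusted p = 2.8e-08 from limma, 2 control wells at the limit), and IGF1 rose by 2.48 (standard error 0.33). VEGFA rose by 1.24 and HGF by 1.10. FGF2, the basic fibroblast growth factor, fell by 1.98 (standard error 0.27, adjusted p = 2.1e-06 from limma) and PDGFA fell by 0.88. FGF10 differed by -0.63 (adjusted p = 0.099 from limma), and passed the test without control rabbit 7 (adjusted p = 0.040) or without atherosclerotic rabbit 14 (adjusted p = 0.036). The signs of all 7 were kept at the 8 other levels built from several genes, but the calls were not. PDGFB, IGF1 and FGF2 passed at all 8, VEGFA and PDGFA at 7, HGF at 5 and FGF10 at 3. The lowest difference of HGF over these levels was 0.27. With ACTA2 left out, 2 were called higher and 3 lower.

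**Figure D4:**
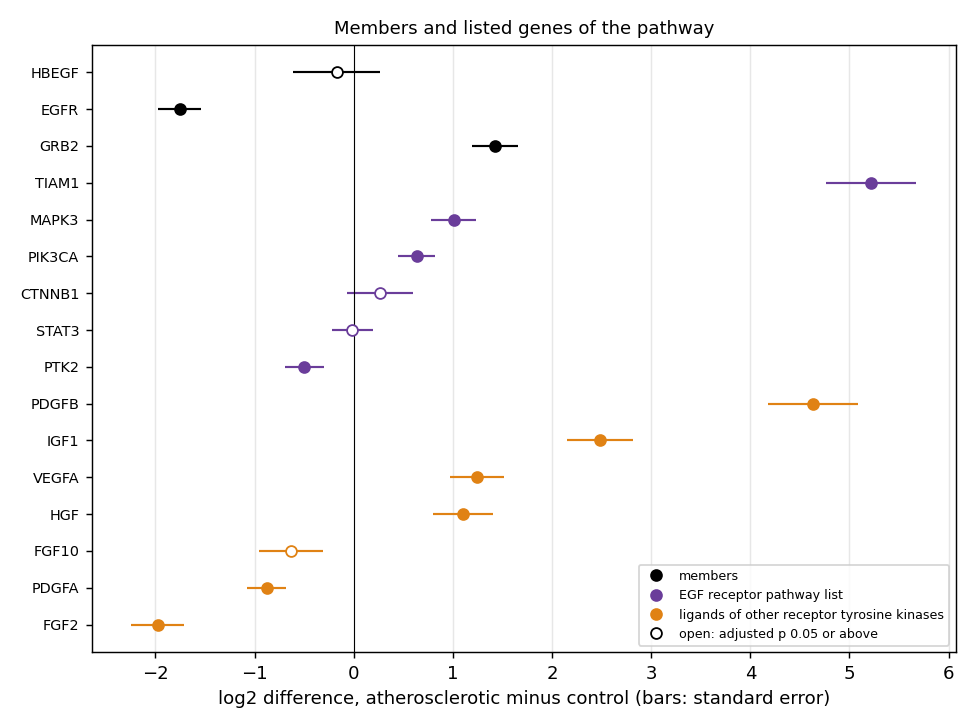
Log2 difference between atherosclerotic and control rabbits (x axis, bars are standard errors) for 3 of the genes described, 6 listed genes of the EGF receptor pathway and 7 ligands of other receptor tyrosine kinases. Filled points passed the limma test at an adjusted p under 0.05. TIAM1 and PDGFB lie farthest to the right, at 5.22 and 4.63, and FGF2 and EGFR farthest to the left, at -1.98 and -1.76.

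Rabbits within a group were used to describe which genes varied most like each of the 3 detected genes, among the 63 genes with a Ct below 35 in every rabbit. Group means were subtracted first, and all values share the reference level of their rabbit, so these likenesses are descriptions over 18 rabbits. EGFR varied most like ITGB1, the beta 1 integrin subunit (r = 0.74), and FGF2 (r = 0.73), and without the 2 rabbits farthest from its median the values were 0.69 and 0.77. ITGB1 fell between the groups by 0.96 (standard error 0.19, adjusted p = 0.00017 from limma). GRB2 varied most like MAPK3 (r = 0.85) and RHOG, a small GTPase (r = 0.85). Without rabbits 10 and 20 these were 0.48 and 0.61, so both likenesses were weaker without these rabbits. Within the control group alone they were 0.21 and 0.27, and within the atherosclerotic group alone 0.93 and 0.94. HBEGF varied most like the cytokine LIF (r = 0.61) and the urokinase receptor PLAUR (r = 0.59), and without rabbits 11 and 13 these were 0.40 and 0.35. Within the control group alone they were 0.77 and 0.65, and within the atherosclerotic group alone 0.12 and 0.39.

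Among EGFR, HBEGF and GRB2 themselves, 6 correlations of log2 ratios were examined, 3 pairs in each group of 9 rabbits. GRB2 and HBEGF ran opposite to each other in the control group (Pearson r = -0.82, exact permutation p = 0.0047, adjusted p = 0.028). Spearman's rho was -0.77 (exact permutation p = 0.021, adjusted p = 0.13), and without rabbits 11 and 13 Pearson's r was -0.57, so the relation was weaker without these 2 rabbits. In the atherosclerotic group the same pair had r = 0.44 and rho = 0.20 (exact permutation p = 0.24 and 0.61). The other 4 correlations had Pearson values between -0.36 and 0.59, and the smallest of their exact permutation p-values was 0.087.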

How the data were processed

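Threshold cycles per well and the ratio of each gene to the reference level were analysed in 18 rabbits, grouped and numbered by the sample labels. RNA was extracted with TRIzol, reverse-transcribed and read on a Mx3000P instrument, with 1 well per gene and rabbit. The authors deposited the raw Ct and the ratio of each gene, computed as 2 raised to minus deltaCt against ACTA2, ACTB, GAPDH, LDHA and LOC100346936. The deposited ratio can be rebuilt from the Ct by holding Ct at 35 cycles or less and averaging the 5 reference Ct geometrically, so limits depend on the reference level. Another file holds the authors' fold changes and was not used. Precision is limited by the single well, and the spread between rabbits includes PCR error.

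Log2 ratios were compared with limma 3.58.1 in R 4.3.3 over all 84 genes, with Benjamini-Hochberg adjustment and a threshold of 0.05. Exact permutation tests between the groups used all 48620 assignments of the 18 rabbits (fewer where rabbits were left out), and those of correlations used every ordering of the 9 rabbits of a group. Pair differences were adjusted over 6 pairs, with the 3 untested pairs entered as p of 1. Both steps were tested on simulated data. The alternatives tried were different reference levels, late wells without the ceiling or left out, exact tests, array weights, a filter for detection in at least 5 rabbits of a group, and leaving out rabbits. Genes named are the 4 genes, the listed pathway, ligand, marker and reference genes, and the 2 most similar genes per detected gene. The genes and lists were chosen with earlier results of these data known. Of the 4 RefSeq accessions on the array, 3 carried the same symbol in the RefSeq gene table of assembly mOryCun1.1, and that of EGF was not found there. Single values of 2 genes of the pathway list are not reported here. Python 3.11.15, numpy 2.4.6, pandas 2.3.3, scipy 1.17.1 and matplotlib 3.10.9 were used.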

Additional observations from a re-analysis of the deposited data

Results flagged for a closer look

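Of 14 groups of 9 values examined (3 genes, 3 pair differences and the reference level in each group), 3 held a rabbit far from the others, where chance gives about 0.7. GRB2 of atherosclerotic rabbit 20 was -3.85 on the log2 scale, while its 8 group mates lay between -2.79 and -1.82. When ACTA2 was dropped from the reference genes it was -2.85, with the 8 between -2.43 and -1.73, and no longer stood apart by the same measure. The reference level of the same rabbit was 19.79 cycles, and that of control rabbit 3 was 24.53 cycles. Differences within a rabbit, which use no reference level, held no rabbit that stood apart.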

How the results depend on the processing

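EGFR stayed lower and GRB2 higher, both past the test, when any single rabbit was left out, with EGFR between -1.86 and -1.66 and GRB2 between 1.34 and 1.60, and under every other alternative run apart from single reference genes. Against single reference genes, chosen after seeing the data, EGFR turned to 1.16 with ACTA2 alone, GRB2 turned to -1.11 with LDHA alone, and GRB2 was 0.32 with GAPDH alone. HBEGF had no settled sign. It turned to 0.11 with GAPDH left out of the reference level, 0.38 with LDHA left out, 0.050 with array weights, 0.029 without rabbits 3 and 20, 0.21 against ACTB alone and 2.74 against ACTA2 alone. It passed the test in the lower direction at -0.998 with ACTA2 left out, -1.28 against GAPDH alone and -2.70 against LDHA alone, and in the higher direction at 2.74 against ACTA2 alone. Leaving out single rabbits moved HBEGF from -0.42 to 0.022, and only without control rabbit 1 was it above 0. The cause of these changes was not tested, beyond the shift of all genes with the reference level. The 3 pair differences passed whenever rabbits were left out. Reference levels cancel within a rabbit and EGFR, HBEGF and GRB2 had no late well, so those alternatives could not change them. Leaving out single rabbits gave 3.03 to 3.34 for GRB2 minus EGFR, 1.39 to 1.87 for GRB2 minus HBEGF and -1.75 to -1.29 for EGFR minus HBEGF, which was -0.974 without control rabbits 11 and 13 together. The EGF wells below Ct 35 numbered 1, and 0 without control rabbit 21, so the count lay between 0 and 1. No alternative gave a fold change for EGF or a pair with it, since 17 of its 18 wells were limits. The number of genes called lay between 46 and 59, beside 51 of 84 as deposited. The 46 came with late and undetermined wells left out, where genes without a measured well in a group could not be tested. No paired analysis was possible because the groups share no rabbit number.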
